A study of Mus musculus with 7 samples.

Results

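Cholesterol synthesis and its transcriptional control were followed through 8 genes in interscapular brown adipose tissue, the thermogenic fat of the upper back, of mice lacking PGAM5. PGAM5 is a protein phosphatase of mitochondria. The 8 genes are Srebf2, Hmgcs1, Sqle, Insig1, Idi1, Fdft1, Lss and Cyp51, and they were picked by name from the 53715 gene identifiers of the count table. Each matched 1 identifier and passed the filter on low counts, which left 15123 genes for testing. The PGAM5 knockout mice (KO) and the wild-type mice (WT) were C57BL/6J males aged 10 weeks. The labels list 4 KO and 3 WT individuals and give no other treatment, allele detail or batch. Columns for KO 1 to KO 3 and WT 1 to WT 3 were used, and KO 4 was not analysed here. The labels describe separate individuals, so the spread between libraries is that between animals. The comparison asks how the tissue's RNA differs when PGAM5 is absent.

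Cholesterol is built from acetyl-CoA through mevalonate, farnesyl pyrophosphate, squalene and lanosterol. When sterols run low in the endoplasmic reticulum, SCAP escorts SREBP2 to the Golgi, where proteases free the part that enters the nucleus and switches on nearly every enzyme of the route. INSIG1 holds SCAP back in the endoplasmic reticulum when sterols are plentiful, and its own gene is a target of SREBPs. Brown fat makes much fatty acid, a task for which the related factor SREBP1c is better known, and both factors share the SCAP and INSIG machinery.

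Total counts were 18952348 to 21826942 in the KO libraries and 18034204 to 33617762 in the WT libraries. The brown adipocyte markers were present throughout, with 12 of 12 detected. Summed levels were 16601 to 19052 CPM in KO and 14437 to 18043 CPM in WT. CPM is each count over a library size scaled by TMM factors, so that levels compare between libraries of unequal depth. The sum mixes unlike members, 3 of them highest and 4 lowest in KO 3. Ucp1 was at 4607, 3765 and 5974 CPM in KO 1 to KO 3, against 2400, 1638 and 2853 CPM in WT 1 to WT 3. Its KO libraries all lay above WT, as for 10.1% of all genes tested (log2 1.06, SE 0.28, edgeR adjusted p = 0.310). Pparg lay lower in every KO library than in every WT library, as for 9.39% of all genes tested (log2 -0.28, SE 0.17, edgeR adjusted p = 0.503). The other markers overlapped between groups. Pgam5 was at 0.0455, 0.129 and 0.537 CPM in KO 1 to KO 3, against 6.75, 8.14 and 5.47 CPM in WT 1 to WT 3 (log2 fold change -4.84, SE 0.59, edgeR adjusted p = 0.0243). That call ended without KO 1, KO 2, WT 1 or WT 3 (edgeR adjusted p 0.0545 to 0.165). KO 3 and WT 2 stood apart from the other libraries on the first principal component (-66.8 and 65.0, against -8.23 to 13.0 elsewhere). Genes of the mitochondrial genome took 19.7% of the counts in KO 3 and 28.2% and 34.1% in the other KO libraries, against 43.0% in WT 2 and 30.3% and 32.5% in the other WT libraries. The 8 genes are therefore given library by library, with their values without KO 3. In bulk tissue, fewer cells of a type and less RNA per cell cannot be told apart.

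None of the 8 genes passed the threshold between KO and WT, an edgeR quasi-likelihood adjusted p of 0.05, where 0.0595% of all genes tested did, 0.0198% higher and 0.0397% lower in KO. DESeq2 called 0 of the 8 as well, beside 1.12% of the genes to which it gave an adjusted p. At an unadjusted edgeR p under 0.05 there was 1 of 8, against 11.8% of all genes. Most of the 8 genes were highest in the same library. KO 3 had the highest level of all 6 libraries for Srebf2, Hmgcs1, Sqle, Idi1, Lss and Cyp51, so for 6 of 8 genes, where KO 3 was highest for 26.5% of all genes tested. Fdft1 went the other way, being lower in every KO library than in every WT library. It was the 1 gene of 8 whose groups did not overlap, where 19.5% of all genes tested had no overlap.

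**Figure D1:**
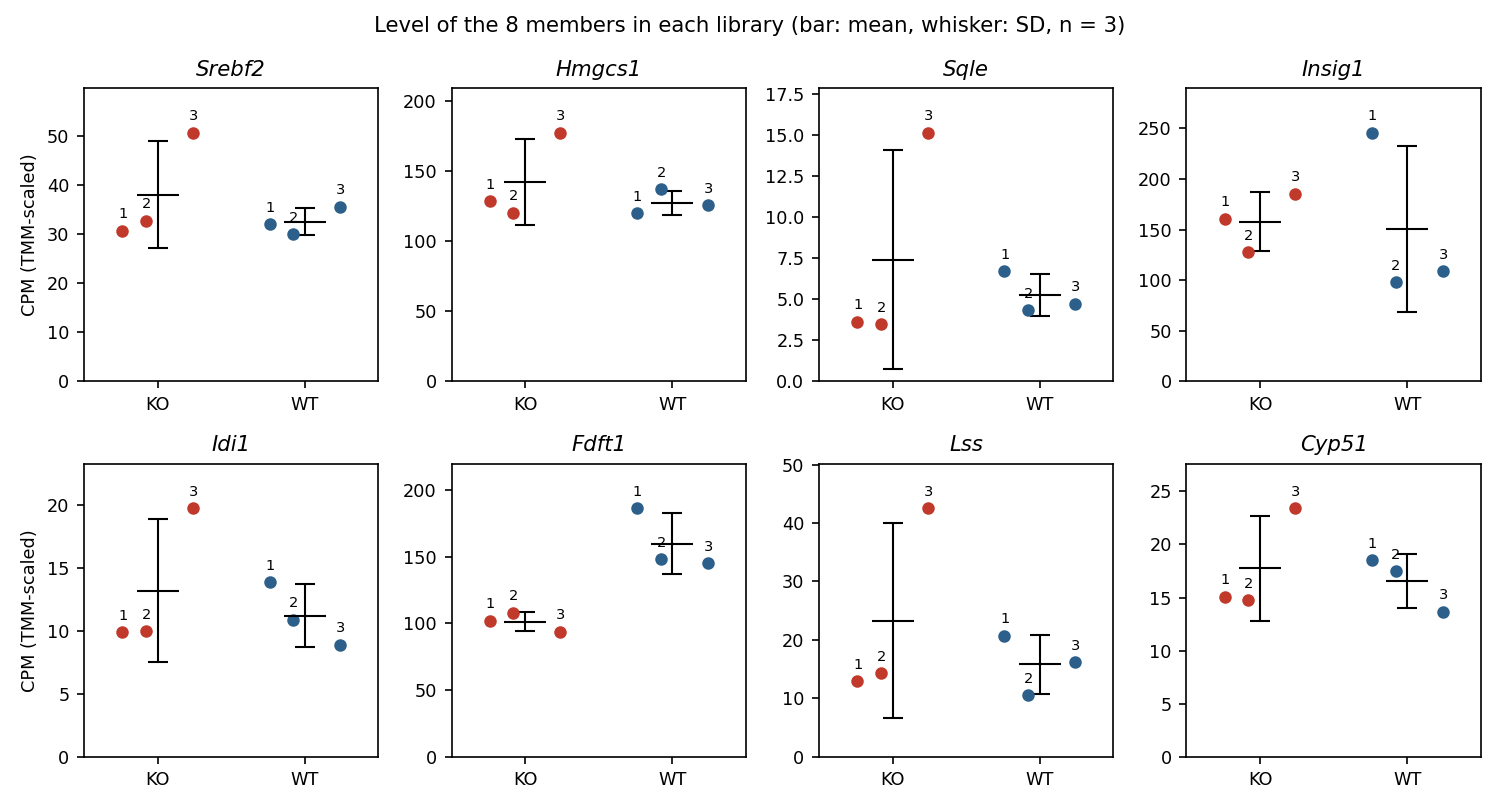
TMM-scaled CPM of each of the 8 genes (vertical axes, from 0) in the KO and WT libraries (points, numbered by replicate), with the mean as a bar and the SD as whiskers (n = 3 each). KO 3 lies above the other libraries for 6 genes, WT 1 is highest for Insig1 and Fdft1, and for Fdft1 the KO points (93.7 to 108 CPM) lie below the WT points (145 to 186 CPM).

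Positions are those of GENCODE release M 21 on mm10. Srebf2 (ENSMUSG00000022463.8) lies on chromosome 15 from 82147181 to 82205379 and Sqle (ENSMUSG00000022351.14) on chromosome 15 from 59315077 to 59331192. Hmgcs1 (ENSMUSG00000093930.2, 119690379 to 119708260) and Idi1 (ENSMUSG00000058258.14, 8885501 to 8892451) are on chromosome 13. Insig1 (ENSMUSG00000045294.11, 28071363 to 28078662) and Cyp51 (ENSMUSG00000001467.5, 4081145 to 4104746) are on chromosome 5. Fdft1 (ENSMUSG00000021273.10) is on chromosome 14 from 63145150 to 63179578, and Lss (ENSMUSG00000033105.12) on chromosome 10 from 76531588 to 76557138. The strand setting of the counting is not given in the sources used here, so reads of genes that overlap on opposite strands may be mixed or left uncounted. This concerns Fdft1, which shares 774 of its 4227 exon bases with Ctsb, the gene of the lysosomal protease cathepsin B, on the opposite strand, and Cyp51, which shares 166 of 4415 with Akap9. The other overlapping genes had 0 to 92 counts in all 6 libraries together.

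RefSeq promoter windows (GRCm38.p6, 250 bases before to 50 after the start) were matched for 6 of the 8 genes, Srebf2, Hmgcs1, Insig1, Idi1, Lss and Cyp51. They were searched on both strands for TCACNCCAC, a core of the sterol regulatory element that SREBPs bind, for its inner letters CACNCCAC, for the NF-Y box CCAAT and the GC box GGGCGG, sites of factors that act beside SREBPs, and for the E-box CACGTG. A match of TCACNCCAC always contains one of CACNCCAC. Stretches of 150 bases that end before the most upstream annotated start are shown for 5 of them, those that hold at least 1 match there, to place the matches beside one another. Each is given 5′ to 3′ on the gene's strand, and capitals mark matches on either strand.
Hmgcs1, chr13:119690201-119690350, plus strand: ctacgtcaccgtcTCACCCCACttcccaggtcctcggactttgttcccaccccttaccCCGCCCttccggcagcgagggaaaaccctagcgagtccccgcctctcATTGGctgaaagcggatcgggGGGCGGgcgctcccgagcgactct
Lss, chr10:76531438-76531587, plus strand: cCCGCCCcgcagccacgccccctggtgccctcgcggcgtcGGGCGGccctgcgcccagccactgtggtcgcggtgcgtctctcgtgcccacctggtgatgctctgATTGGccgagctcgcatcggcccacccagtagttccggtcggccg
Cyp51, chr5:4104747-4104896, minus strand: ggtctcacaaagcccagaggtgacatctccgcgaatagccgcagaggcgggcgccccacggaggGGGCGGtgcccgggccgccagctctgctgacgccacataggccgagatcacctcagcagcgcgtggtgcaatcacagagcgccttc
Srebf2, chr15:82147031-82147180, plus strand: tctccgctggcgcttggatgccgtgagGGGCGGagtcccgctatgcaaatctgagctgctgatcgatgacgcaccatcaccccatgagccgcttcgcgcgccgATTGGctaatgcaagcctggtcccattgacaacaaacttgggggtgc
Insig1, chr5:28071213-28071362, plus strand: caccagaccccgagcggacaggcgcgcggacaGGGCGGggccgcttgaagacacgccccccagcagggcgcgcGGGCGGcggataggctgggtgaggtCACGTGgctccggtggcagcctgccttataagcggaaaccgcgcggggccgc

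Over the whole 300-base windows, TCACNCCAC was found in 1 of the 6, Hmgcs1, at -137 to -129 counted from the RefSeq start, and in 1.24% of all 32851 promoter windows. CACNCCAC was in 2 of the 6, Hmgcs1 and Insig1, and in 6.24% of all windows. CCAAT was in 6 of 6 and in 37.4% of all windows, and GGGCGG was in 6 of 6 and in 35.7% of all windows. CACGTG was in Insig1 alone among the 6, at -101 to -96, and in 7.15% of all windows. These are matches of letters only, and a window without a match says nothing of whether the factor acts on that gene.

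Srebf2, the gene of the transcription factor itself, was at 30.7, 32.7 and 50.5 CPM in KO 1 to KO 3, against 32.0, 29.9 and 35.5 CPM in WT 1 to WT 3. KO 1 and KO 2 lay within the WT range, and KO 3 lay above it. The log2 fold change was 0.22 (SE 0.21, 95% interval -0.25 to 0.69, edgeR adjusted p = 0.650), and without KO 3 it was -0.04. Intervals of fold changes are those of single genes, not adjusted for the number of genes tested. Insig1, the sterol-responsive brake on SREBP processing, was at 160.5, 128 and 186 CPM in KO, against 245, 97.9 and 109 CPM in WT. The WT libraries spanned the KO libraries on both sides, with WT 1 the highest of all. On the log2 scale the difference was 0.07 (SE 0.33, edgeR adjusted p = 0.942), with an interval from -0.68 to 0.81, which is 0.625-fold to 1.76-fold. Without KO 3 it was -0.07.

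In the mevalonate arm, Hmgcs1 makes HMG-CoA in the cytosol. It was at 128, 120.1 and 177 CPM in KO, against 119.7, 137 and 125 CPM in WT. Only KO 3 lay outside the WT range, and the log2 fold change was 0.16 (SE 0.19, 95% interval -0.27 to 0.59, edgeR adjusted p = 0.735), and -0.03 without KO 3. Idi1, which converts isopentenyl to dimethylallyl pyrophosphate, was at 9.91, 9.96 and 19.7 CPM in KO, against 13.9, 10.9 and 8.89 CPM in WT. Its log2 fold change was 0.24 (SE 0.30, edgeR adjusted p = 0.748) with all libraries and -0.17 without KO 3.

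Fdft1 encodes squalene synthase, the first enzyme committed to sterols. It was at 102, 108 and 93.7 CPM in KO 1 to KO 3, against 186, 148 and 145 CPM in WT 1 to WT 3. The groups did not overlap. Means were 101 ± 7.20 CPM in KO and 159.7 ± 22.9 CPM in WT (SD, n = 3 each), a log2 fold change of -0.66 (SE 0.17, 95% interval -1.05 to -0.27). This did not pass over all genes (edgeR adjusted p = 0.310, unadjusted p = 0.00369; exact two-sided permutation p = 0.1, the smallest that 3 libraries against 3 allow). DESeq2 gave an adjusted p of 0.0586. A gene whose KO libraries all lay below its WT libraries was not rare, at 9.39% of all genes tested. In 14 alternative settings the log2 fold change ranged from -0.72 to -0.53. Since the groups did not overlap, leaving out libraries could hardly turn its sign, so the kept direction adds no support. Ctsb, whose exons Fdft1 partly shares, was at 869, 1031 and 1177 CPM in KO, against 1042, 868 and 1115 CPM in WT, with a log2 fold change of 0.03 (SE 0.20), and its part in the Fdft1 counts was not tested.

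Sqle, squalene epoxidase, the oxygen-dependent step after Fdft1, had 80, 81 and 310 counts in KO 1 to KO 3, against 166, 65 and 161 counts in WT 1 to WT 3. In CPM these were 3.64, 3.48 and 15.1 in KO, against 6.71, 4.34 and 4.74 in WT. KO 1 and KO 2 lay below every WT library while KO 3 lay above every one. The log2 fold change was 0.49 (SE 0.53, 95% interval -0.70 to 1.68, edgeR adjusted p = 0.704), and -0.57 without KO 3. Lss, lanosterol synthase, which closes the sterol rings, was at 12.9, 14.3 and 42.5 CPM in KO, against 20.7, 10.5 and 16.2 CPM in WT. KO 1 and KO 2 lay inside the WT range and KO 3 at 2.05 times the highest of the other 5 libraries. Its log2 fold change was 0.55 (SE 0.44, edgeR adjusted p = 0.596) with all libraries and -0.22 without KO 3.

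Cyp51, the demethylase that starts the conversion of lanosterol, was at 15.1, 14.8 and 23.4 CPM in KO, against 18.5, 17.5 and 13.7 CPM in WT. The log2 fold change was 0.10 (SE 0.23, 95% interval -0.41 to 0.62, edgeR adjusted p = 0.863), and -0.15 without KO 3. Across the 8 genes the median log2 fold change was 0.19, beside -0.002 for all genes tested, and 7 of 8 were positive. Without KO 3 the median was -0.16, beside -0.02 for all genes, and 0 of 8 were positive. The sign of the median was therefore set by KO 3.

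The genes differed in how far the 6 libraries spread. The highest library exceeded the lowest by 4.36 times for Sqle and 4.03 times for Lss. This ratio was 2.51 for Insig1, 2.22 for Idi1, 1.99 for Fdft1, 1.71 for Cyp51 and 1.69 for Srebf2. Hmgcs1 varied least, at 1.48 times. In KO 3 the level over the mean of the other 5 libraries was 3.31 for Sqle, 2.85 for Lss, 1.85 for Idi1, 1.57 for Srebf2, 1.47 for Cyp51, 1.40 for Hmgcs1, 1.25 for Insig1 and 0.680 for Fdft1. It was at least 1.5 for 4 of the 8 genes, where 14.0% of all genes tested reached that ratio.

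Levels were compared between genes per length, as RPKM over the summed exon length. Insig1 stood highest, at 51.1 ± 9.38 RPKM in KO and 48.7 ± 26.6 RPKM in WT (SD, n = 3 each). Fdft1 followed at 23.9 ± 1.70 RPKM in KO and 37.8 ± 5.43 RPKM in WT, and Hmgcs1 at 30.9 ± 6.68 RPKM in KO and 27.7 ± 1.89 RPKM in WT. The library ranges of these 3 genes overlapped from one to the next, and the lowest Hmgcs1 library (26.0 RPKM) lay above the highest Srebf2 library (7.03 RPKM). Srebf2, Cyp51, Idi1, Lss and Sqle then followed in that order, with mean levels over all libraries of 4.90, 3.88, 3.48, 1.81 and 1.14 RPKM and each range overlapping the next. The levels of Fdft1 and of Cyp51 carry the limit of shared exon bases given above, and exon sums overstate the length of a gene with several transcript forms, such as Lss (10787 bases).

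Ratios of such levels within a library do not depend on how libraries were scaled. Hmgcs1 over Fdft1 was 1.16, 1.02 and 1.74 in KO 1 to KO 3, against 0.591, 0.851 and 0.795 in WT 1 to WT 3. Every KO library had more Hmgcs1 than Fdft1 per length and every WT library less (exact two-sided permutation p = 0.1, the smallest possible). Fdft1 already separated the groups by itself, so this ratio is not a result apart from it. Sqle over Fdft1 was 0.0272, 0.0245 and 0.123 in KO, against 0.0275, 0.0223 and 0.0249 in WT. For that pair KO 1 and KO 2 lay within the WT range, so the ratio differed in KO 3 alone. These pairs were chosen after the values were seen.

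**Figure D2:**
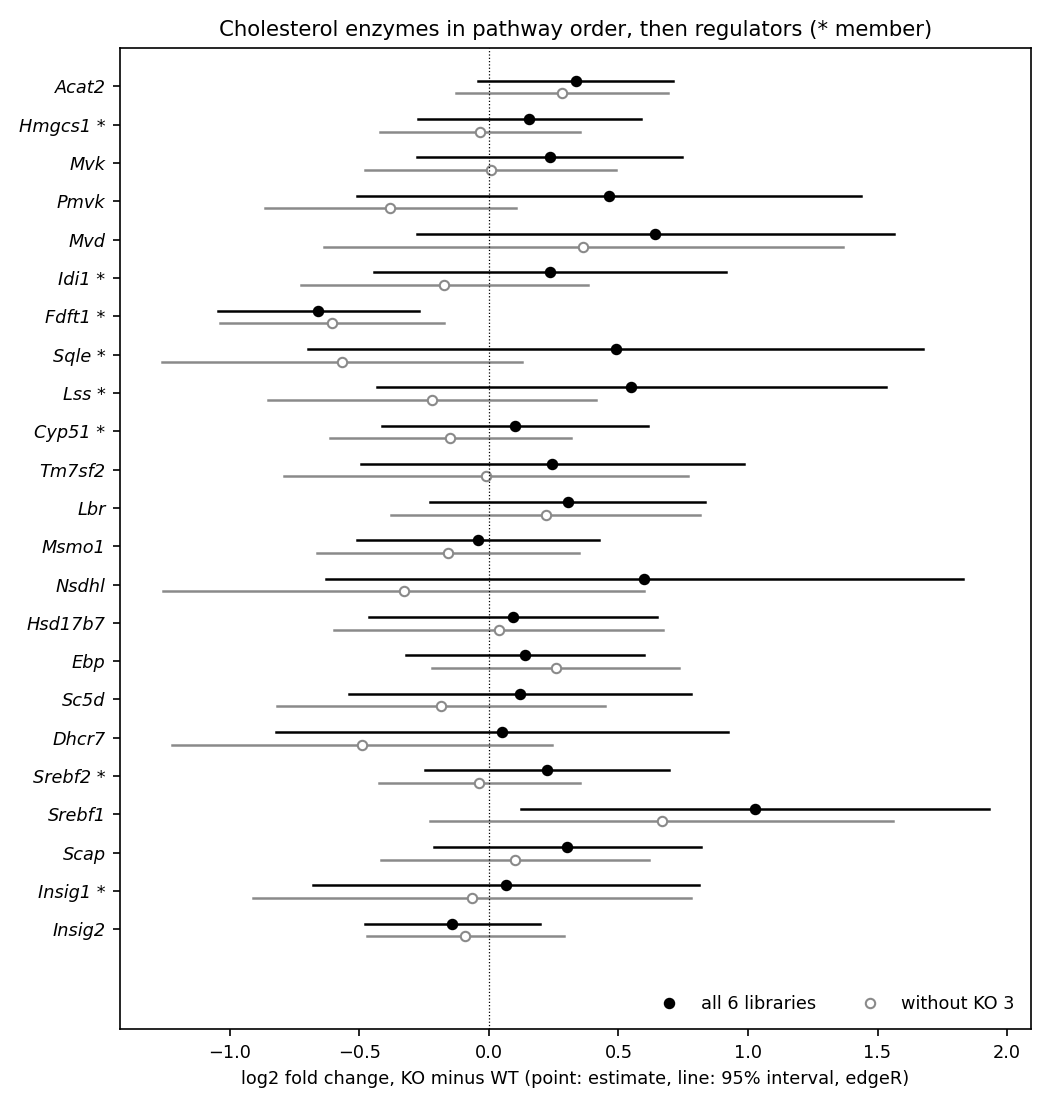
Log2 fold change, KO minus WT, of tested cholesterol enzymes in pathway order, then of Srebf2, Srebf1, Scap, Insig1 and Insig2 (rows), with 95% intervals from edgeR that are not adjusted over genes. Filled points use all 6 libraries and open points leave out KO 3, where Sqle moves to -0.57 and Lss to -0.22 while Fdft1 stays at -0.61.

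The rest of the route was examined through a list of 21 enzymes, of which 20 were tested. Fdps, which makes farnesyl pyrophosphate, was below the filter at 0.516 ± 0.337 CPM in KO and 0.498 ± 0.413 CPM in WT (SD, n = 3 each). Of the 20, none passed in either direction by edgeR or DESeq2, and at an unadjusted edgeR p under 0.05 there was 1, Fdft1. Positive log2 fold changes numbered 17 of 20, with a median of 0.24. Without KO 3 they numbered 6 of 20, with a median of -0.14. Among the 14 enzymes that are not among the 8 genes, 10 were highest in KO 3, against 26.5% of all genes tested.

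Acat2, cytosolic acetoacetyl-CoA thiolase at the head of the route, was at 144, 152 and 164 CPM in KO, against 121, 107 and 136 CPM in WT. Its groups did not overlap, as for the 10.1% of all genes whose KO libraries all lay above WT, but Acat2 missed the threshold (log2 0.33, SE 0.17, edgeR adjusted p = 0.452).

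Pmvk, phosphomevalonate kinase, was at 21.5, 17.0 and 65.3 CPM in KO, against 30.1, 22.9 and 22.1 CPM in WT. Nsdhl, which helps remove the methyl groups at carbon C-4 of the sterol ring, was at 15.5, 13.1 and 53.2 CPM in KO, against 29.1, 9.00 and 15.6 CPM in WT. Both had the pattern of Sqle and Lss, with KO 3 far above and KO 1 and KO 2 at or below the WT mean. Dhcr7, which forms cholesterol from its precursor, was at 15.1, 17.0 and 38.0 CPM in KO, against 32.0, 13.4 and 22.0 CPM in WT. Sc5d, the desaturase before it, was at 39.9, 41.7 and 69.7 CPM in KO, against 66.7, 35.0 and 37.5 CPM in WT. For these last genes WT 1 stood nearly as high as KO 3. The log2 fold changes of Pmvk, Nsdhl, Dhcr7 and Sc5d were 0.46, 0.60, 0.05 and 0.12, and those without KO 3 were -0.38, -0.33, -0.49 and -0.19.

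Among the genes that control SREBP processing, 0 of 12 passed, with 7 positive and a median log2 fold change of 0.05. The positive genes numbered 4 of 12 without KO 3 (median -0.0063) and 4 of 12 without WT 2 (median -0.079). Scap, the escort, was at 34.5, 37.0 and 51.7 CPM in KO, against 34.9, 24.2 and 40.6 CPM in WT (log2 0.30, SE 0.23, edgeR adjusted p = 0.584). Insig2, the gene of the second INSIG protein, was at 31.5, 35.3 and 30.0 CPM in KO, against 33.7, 37.0 and 36.1 CPM in WT (log2 -0.14, SE 0.15, edgeR adjusted p = 0.699).

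Srebf1, which encodes SREBP1, was at 204, 252 and 424 CPM in KO, against 154, 65.9 and 211 CPM in WT. The groups overlapped by KO 1 and WT 3. The log2 fold change was 1.03 (SE 0.40, 95% interval 0.12 to 1.93) and did not pass (edgeR adjusted p = 0.401). Without KO 3 it was 0.67, so it kept its sign where that of Srebf2 turned. Per length, Srebf1 over Srebf2 was 8.49, 9.84 and 10.7 in KO 1 to KO 3, against 6.15, 2.81 and 7.57 in WT 1 to WT 3. The groups did not overlap (exact two-sided permutation p = 0.1, the smallest possible). This pair, too, was chosen after the values were seen. Insig1 over Insig2, Insig1 over Srebf2 and Sqle over Srebf2 overlapped between groups, while Lss over Fdft1 and Fdft1 over Ctsb did not. The pairs with Fdft1 share the separation of Fdft1 itself and do not count as further results. How often ratios separate among all gene pairs was not computed.

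The genes around the route were followed in 4 further lists, none of whose tested members passed by edgeR or DESeq2. Over all 72 listed genes tested, KO libraries lay wholly above WT for 7 and wholly below for 5. Of all genes tested, 10.1% and 9.39% did so, so the single genes without overlap named here are no result about the lists. Of 9 genes of uptake and sterol transport, 7 were positive, with a median log2 fold change of 0.10, and 3 had an unadjusted edgeR p under 0.05, as 11.8% of all genes tested did. Lipa, the lysosomal lipase that frees cholesterol from its esters, was at 125, 116 and 198 CPM in KO, against 104, 74.0 and 84.9 CPM in WT. Its groups did not overlap (log2 0.74, SE 0.24, edgeR adjusted p = 0.370), and without KO 3 the log2 fold change was 0.45. Npc2, which hands on lysosomal cholesterol, differed by -0.24 on the log2 scale (SE 0.19), and Gramd1a, which carries it from the plasma membrane, by 0.04 (SE 0.20).

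Of 8 genes of the LXR and efflux list, 5 were positive, with a median of 0.25, and 1 had an unadjusted edgeR p under 0.05. Nr1h3, the gene of the oxysterol receptor LXR alpha, was at 63.2, 60.4 and 65.2 CPM in KO, against 34.5, 54.8 and 56.0 CPM in WT, without overlap (log2 0.38, SE 0.20, edgeR adjusted p = 0.468). Without WT 1, its lowest library, the log2 fold change was 0.18. For Abca1, a cholesterol exporter, the log2 difference was 0.41 (SE 0.33), and for Apoe, an apolipoprotein that accepts cholesterol, it was -0.33 (SE 0.30). The omission of single libraries moved Abca1 between 0.13 (without WT 2) and 0.87 (without WT 3), and Apoe between -0.49 (without WT 1) and -0.03 (without WT 2). Of 4 tested genes of cholesteryl ester formation and breakdown, 1 was positive, with a median of -0.29, and 0 had an unadjusted edgeR p under 0.05. Among them were Lipe (0.25, SE 0.23), the ester hydrolase Nceh1 (-0.53, SE 0.33) and the plasma enzyme Lcat (-0.31, SE 0.42). Without WT 2, Nceh1 was at -0.14, and without KO 3, Lcat was at -0.02 and the median of the list at -0.05.

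Farnesyl pyrophosphate also feeds the isoprenoid branch, where 2 of 7 genes were positive, with a median log2 fold change of -0.16, and 1 had an unadjusted edgeR p under 0.05. Ggps1, which makes geranylgeranyl pyrophosphate, was at 25.3, 31.2 and 24.4 CPM in KO 1 to KO 3, against 39.4, 45.5 and 37.8 CPM in WT 1 to WT 3. As for Fdft1, every KO library lay below every WT library, with a log2 fold change of -0.60 (SE 0.17, 95% interval -0.97 to -0.22). By the edgeR fit its unadjusted p was 0.00541 and its adjusted p 0.325. Of the subunits of the enzyme that makes dolichol chains, Nus1 differed by -0.18 on the log2 scale (SE 0.19) and Dhdds by -0.17 (SE 0.22).

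Genes of fatty acid synthesis that SREBP1 is known to drive were examined through a list of 12. Fasn, fatty acid synthase, lay at 2383, 4446 and 30944 CPM in KO, against 8677, 305 and 3854 CPM in WT. In that list 12 of 12 genes were highest in KO 3 and 11 of 12 lowest in WT 2, where WT 2 was lowest for 27.1% of all genes tested. Of the 8 sterol genes, 6 were highest in KO 3 and 3 lowest in WT 2. The median level in KO 3 over the mean of the other 5 libraries was 3.41 for the 12 lipogenic genes and 1.52 for the 8 sterol genes, beside 0.976 for all genes. None of the 12 passed between KO and WT by edgeR, nor any of the 11 that DESeq2 tested (it gave no p for Acly), and 0 had an unadjusted edgeR p under 0.05. The median log2 fold change was 0.76 with all libraries and -0.29 without KO 3. Scd1, the main stearoyl-CoA desaturase, was at 6870, 13914 and 39214 CPM in KO, against 39061, 4236 and 20322 CPM in WT, so that WT 1, where Insig1 peaked, nearly equalled KO 3. Thrsp, a promoter of lipogenesis, had a log2 fold change of 0.03 (SE 0.32).

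**Figure D3:**
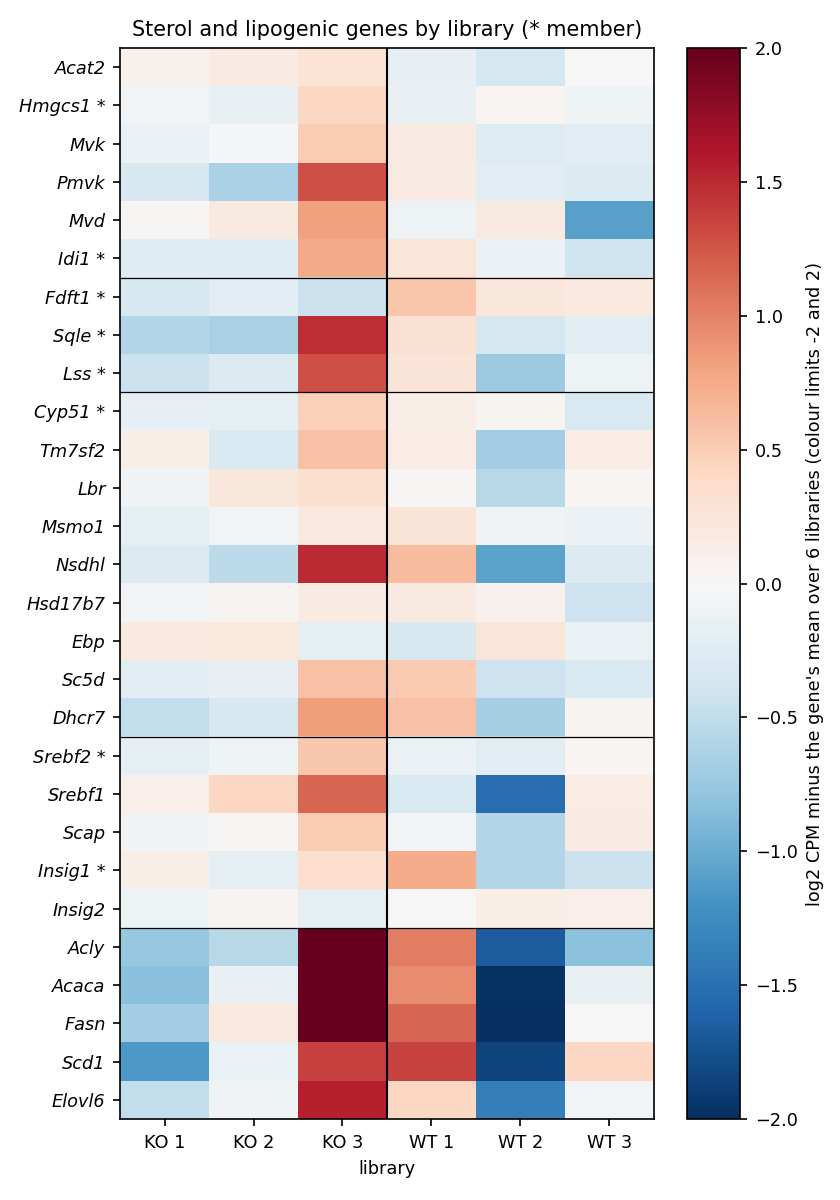
Log2 CPM minus the gene's mean over the 6 libraries (colour, red above and blue below the mean, colours ending at -2 and 2) for the mevalonate arm, the squalene to lanosterol step, the later enzymes, the regulators and 5 lipogenic genes (rows, separated by lines) in KO and WT libraries (columns). KO 3 is red for most rows, Fdft1 is blue in all KO columns and red in all WT columns, and WT 2 is deepest blue in the lipogenic rows.

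Markers of other cell types in KO 3 were read beside these values. The 9 hepatocyte markers were detected in brown fat libraries, with a summed level of 303, 386 and 21.0 CPM in KO 1 to KO 3, against 341, 615 and 360.0 CPM in WT 1 to WT 3. All 9 were lowest in KO 3. Albumin RNA (Alb) was at 206, 263 and 10.9 CPM in KO, against 237, 412 and 242 CPM in WT. The sum of 6 endothelial markers was 407, 586 and 769 CPM in KO, against 429, 319 and 521 CPM in WT, and 5 of 6 were highest in KO 3. The white adipocyte sum of 6 markers was lowest in KO 3 at 36.3 CPM, against 61.0 CPM or more in every other library. Only 3 of the 6 (Lep, Nnat and Agt) were themselves lowest in KO 3, so the sum does not stand for the whole list. Of 4 steroidogenic markers, Hsd3b1 was at 0 and the sum was 3.52 to 4.37 CPM in KO and 3.00 to 3.23 CPM in WT. Summed levels of 7 macrophage markers were 31.0 to 46.4 CPM in KO and 35.6 to 51.0 CPM in WT. Those of 8 lymphocyte markers were 11.5 to 19.6 CPM in KO and 6.07 to 9.62 CPM in WT. For 7 Schwann cell markers they were 145 to 210 CPM in KO and 162 to 178 CPM in WT, and for 9 skeletal muscle markers 1.86 to 33.0 CPM in KO and 7.47 to 38.3 CPM in WT. The part of these cell types, and of the low mitochondrial share of KO 3, in the sterol gene values was not tested.

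**Figure D4:**
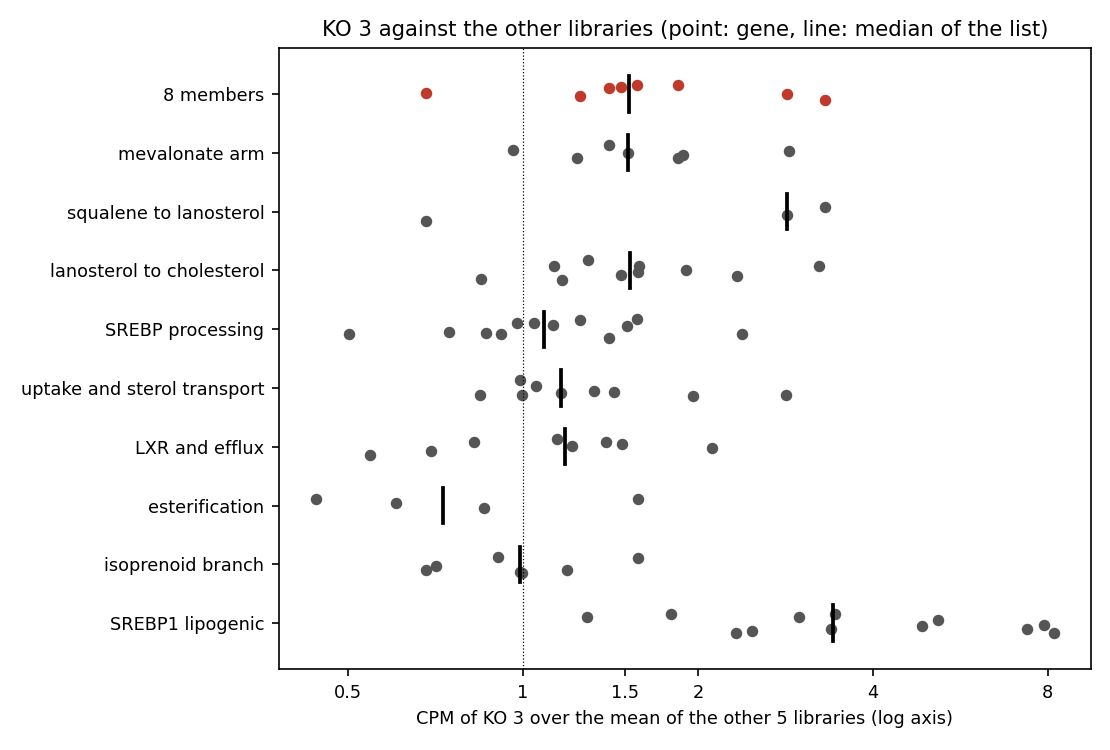
CPM of KO 3 over the mean CPM of the other 5 libraries (horizontal log axis) for each tested gene (points) of the 8 sterol genes and of 9 pathway lists (rows), with the median of each list as a line. The 8 genes have a median of 1.52, the lipogenic list 3.41 and the isoprenoid branch 0.990.

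The genes whose profile over the 6 libraries was most like the mean of the 7 genes other than Srebf2 were sought among 13205 tested genes with a mean of at least 1 CPM. Likeness was the root mean square difference between log2 CPM values, each less the gene's mean. The nearest were the predicted gene Gm45470 (0.0650), Slc26a11, an anion transporter (0.0693), Itpk1, an inositol phosphate kinase (0.0818), Gm18609 (0.0826) and Fan1, a DNA repair nuclease (0.0840). Nearest to Srebf2 were Rcc2 (0.0477), Lonp1, a mitochondrial protease (0.0485), Tbc1d22b (0.0495), Ptpn9 (0.0497) and Pitpnm3 (0.0505). Among the listed pathway genes, Mvk, mevalonate kinase, was nearest to the 7 genes and ranked 23 of all, and Lipe, hormone-sensitive lipase, which also splits cholesteryl esters, ranked 6 for Srebf2. With this many genes over 6 libraries, close profiles are common, and the ranks are a description only.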

How the data were processed

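RNA from brown fat was sequenced, and the deposited table holds raw read counts per gene for 3 KO and 3 WT libraries. The tools and build named per the submitters' processing notes are mm10, DESeq2, featureCounts 1.6.2 and HISAT2 2.1.0. Not given in the sources used here were the annotation release, the strand setting and the DESeq2 version. The design planned for all labelled mice became 3 against 3, since KO 4 was not analysed here. From the counts, genes were filtered with filterByExpr (minimum count 10, minimum total 15), scaled by TMM and tested with the edgeR 4.0.16 quasi-likelihood test, genotype being the only term and Benjamini-Hochberg adjustment running over all 15123 genes. Profiles used log2 CPM with a prior count of 2. Alternatives used limma 3.58.1 and DESeq2 1.42.0 in R 4.3.3. Tables and figures used Python 3.11.15, pandas 2.3.3, scipy 1.17.1 and matplotlib 3.10.9. Symbols and exon lengths came from GENCODE, matched on identifiers without version for 53620 of 53715 rows. The fit was tested on simulated data. The genes and lists were chosen with earlier results of these data known. Named were the 8 genes, every listed gene that passed, the 3 of highest mean CPM in each list, Srebf1, Scap and Insig2, and the 5 nearest profiles. Some listed genes that this rule names are not reported here, though the counts over lists include them. A level of 3 counts, the limit that a count of 0 allows, was 0.0892 to 0.166 CPM, which covers counting error only.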

Additional observations from a re-analysis of the deposited data

How the results depend on the processing

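Of 112 pairs of a sterol gene and an alternative setting, 96 kept their direction and 16 reversed, and 0 crossed the threshold. Over all genes, 9 were called, against 168 with DESeq2, 663 with no filter, 5 with the replicate block and 27 without both WT 2 and KO 3. Leaving out single libraries gave 0 to 17, the 0 without KO 2, where 1482 genes had an unadjusted edgeR p under 0.05. Of the 72 listed genes tested, 0 were called and 8 had an unadjusted edgeR p under 0.05, beside 11.8% of all genes tested. With no filter 12 listed genes were called, Srebf1, Lipa and Fasn among them and none of the 8; the cause was not tested. The median log2 fold change of the 8 genes (0.19) was -0.24 without both WT 2 and KO 3 and -0.16 to 0.32 without single libraries.

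Without both WT 2 and KO 3, these log2 fold changes reversed: Srebf2 -0.088, Sqle -0.68, Insig1 -0.30, Idi1 -0.19, Lss -0.43, Cyp51 -0.11, Pmvk -0.44, Sc5d -0.35, Dhcr7 -0.75, Nsdhl -0.64, Apoe 0.20, Lipe -0.065, Lcat 0.27, Nus1 0.078, Fasn -0.87, Thrsp -0.36 and Scap -0.076. With limma-voom Dhcr7 was at -0.036, Scd1 at 0.10 and Thrsp at -0.071. With the replicate block Scd1 was at 0.20 and Thrsp at -0.076. Without single libraries the ranges were -0.037 to 0.37 for Srebf2, -0.034 to 0.26 for Hmgcs1, -0.57 to 0.83 for Sqle, -0.17 to 0.61 for Insig1, -0.17 to 0.42 for Idi1, -0.22 to 0.85 for Lss and -0.15 to 0.22 for Cyp51. They were -0.38 to 0.79 for Pmvk, -0.19 to 0.48 for Sc5d, -0.49 to 0.39 for Dhcr7, -0.33 to 1.13 for Nsdhl, -0.090 to 0.20 for Gramd1a, -0.0041 to 0.39 for Lipe, -1.03 to 0.70 for Scd1, -0.33 to 2.60 for Fasn and -0.45 to 0.24 for Thrsp. The Pgam5 call also ended with limma-voom (adjusted p = 0.0531) and with the replicate block (edgeR adjusted p = 0.0655). Deviations of log2 CPM from the group means were correlated between KO and WT libraries. Same-numbered ones gave -0.114, 0.102 and 0.0909, and differently numbered ones -0.260 to 0.249. The numbers were therefore not taken as pairs, and the block changed no call among the listed genes.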

Other observations

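Further pathway genes, chosen after their values were seen, are given as values. Erlin1, which takes part in holding SREBPs back, was at 14.9, 13.7 and 9.38 CPM in KO, against 16.5, 26.7 and 21.5 CPM in WT (log2 -0.77, SE 0.24, edgeR adjusted p = 0.354). Its KO libraries all lay below its WT libraries, and KO 3 was the lowest of all. Pltp, the phospholipid transfer protein, was at 26.7, 30.4 and 48.5 CPM in KO, against 22.7, 11.8 and 23.1 CPM in WT (log2 0.86, SE 0.30, edgeR adjusted p = 0.374). Scarb1, the HDL receptor, was at 60.3, 62.1 and 53.4 CPM in KO, against 37.6, 41.6 and 51.6 CPM in WT (log2 0.42, SE 0.17, edgeR adjusted p = 0.405). For Pltp and Scarb1 the lowest KO library exceeded the highest WT library, as for 10.1% of all genes tested, and neither passed over all genes. The direction of Erlin1, KO wholly below WT, was that of 9.39% of all genes tested.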
